A study of Mus musculus with 8 samples.

Results

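The genes described here drive DNA replication and cell division. They are 30 genes of 55421 in the deposited count table, found by their gene names, and all 30 passed the filter on low counts. By textbook role, 14 act in S phase (Pcna, Mcm2 to Mcm7, Cdc6, Ccne1, Ccne2, Tyms, Rrm1, Rrm2 and Tk1) and 16 act in G2 and mitosis (Mki67, Top2a, Ccnb1, Ccnb2, Ccna2, Cdk1, Birc5, Aurka, Aurkb, Bub1, Bub1b, Cdc20, Plk1, Cenpa, Ube2c and Foxm1). They were measured by bulk RNA sequencing of total RNA from small intestine of wild-type mice in 8 samples. All mice were kept at 7% oxygen for 7 days. For 4 samples no further treatment is named (Hypoxia), and in 4 the mice also received nitrate at 4 mM (Hypoxia+Nitrate). No sample from normal oxygen was analysed here, so each difference is between nitrate and no named nitrate under low oxygen. Age, sex, the segment of intestine and whether each sample is a separate animal are not given in the labels, so a p-value here reflects only how far these samples scatter, which may be technical.

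In the small intestine, dividing cells sit in the crypts, where stem cells and their transit-amplifying daughters replace the epithelium throughout life. Before S phase, Cdc6 loads the MCM2 to MCM7 helicase onto origins of replication. Cyclin E with its kinase then starts replication, PCNA clamps the polymerases to DNA, and ribonucleotide reductase, thymidylate synthase and thymidine kinase supply deoxynucleotides. E2F factors switch these genes on before S phase. The mitotic genes peak later, under B-MYB, the MuvB complex and FOXM1, which act through a cell cycle homology region (CHR) near the start site. CCAAT boxes often lie in the same promoters.

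The promoters of 25 of the 30 genes were matched in RefSeq (GRCm38.p6), each as a window from 250 bases before to 50 bases after the annotated start. The CHR core TTTGAA, searched on both strands, was in 10 of 13 mitotic windows and in 1 of 12 S-phase windows, that of Mcm2, against 17.89% of 32851 windows of all genes. CCAAT was in 12 of 13 mitotic and 8 of 12 S-phase windows, against 37.41% of all. An E2F-like motif, TTNGCGC or GCGGGAA, was in 6 of 12 S-phase and 3 of 13 mitotic windows, against 10.35% of all. The search described letters only, and overlapping matches on opposite strands were each counted. The stretches below run from 150 bases before to 30 bases after the RefSeq start for the 5 genes called (Pcna, Mcm5, Cdc6, Ccnb2 and Birc5), for Mki67, whose groups were fully apart, and for Mcm6, Top2a and Cdc20, which show the split within the nitrate group described below, and capitals mark the motifs named above on either strand.
Pcna, chr2:132253151-132253330, minus strand: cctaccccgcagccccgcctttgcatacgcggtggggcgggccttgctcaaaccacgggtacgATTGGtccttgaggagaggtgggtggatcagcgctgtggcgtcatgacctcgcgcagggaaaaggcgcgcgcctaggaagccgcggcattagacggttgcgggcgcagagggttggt
Mcm5, chr8:75109359-75109538, plus strand: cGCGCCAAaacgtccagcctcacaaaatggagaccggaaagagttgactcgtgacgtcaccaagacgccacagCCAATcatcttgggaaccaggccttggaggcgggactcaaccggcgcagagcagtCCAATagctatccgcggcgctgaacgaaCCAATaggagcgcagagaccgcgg
Mcm6, chr1:128359676-128359855, minus strand: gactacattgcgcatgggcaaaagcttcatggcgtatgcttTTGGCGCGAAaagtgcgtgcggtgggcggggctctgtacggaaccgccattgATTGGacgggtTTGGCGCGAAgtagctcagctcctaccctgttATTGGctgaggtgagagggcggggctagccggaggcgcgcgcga
Cdc6, chr11:98908001-98908180, plus strand: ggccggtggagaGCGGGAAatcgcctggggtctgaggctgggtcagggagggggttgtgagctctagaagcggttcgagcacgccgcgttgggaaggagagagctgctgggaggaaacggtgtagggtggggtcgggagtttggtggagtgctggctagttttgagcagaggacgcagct
Ccnb2, chr9:70421525-70421704, minus strand: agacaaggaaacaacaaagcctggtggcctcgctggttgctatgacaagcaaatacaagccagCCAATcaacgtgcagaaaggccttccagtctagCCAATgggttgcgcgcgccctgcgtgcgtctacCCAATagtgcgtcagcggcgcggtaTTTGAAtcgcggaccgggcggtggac
Birc5, chr11:117849087-117849266, plus strand: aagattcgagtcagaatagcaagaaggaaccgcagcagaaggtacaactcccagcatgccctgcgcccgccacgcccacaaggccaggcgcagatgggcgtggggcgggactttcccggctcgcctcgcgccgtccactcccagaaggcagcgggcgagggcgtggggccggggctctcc
Mki67, chr7:135716350-135716529, minus strand: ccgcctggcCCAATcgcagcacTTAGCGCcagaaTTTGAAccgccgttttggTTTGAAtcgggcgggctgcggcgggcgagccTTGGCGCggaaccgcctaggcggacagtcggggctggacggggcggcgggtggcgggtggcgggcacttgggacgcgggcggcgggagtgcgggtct
Top2a, chr11:99024160-99024339, minus strand: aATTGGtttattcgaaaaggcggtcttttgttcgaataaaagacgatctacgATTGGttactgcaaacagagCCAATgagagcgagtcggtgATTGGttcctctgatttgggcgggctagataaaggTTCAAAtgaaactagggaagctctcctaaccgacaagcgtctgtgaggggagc
Cdc20, chr4:118437314-118437493, minus strand: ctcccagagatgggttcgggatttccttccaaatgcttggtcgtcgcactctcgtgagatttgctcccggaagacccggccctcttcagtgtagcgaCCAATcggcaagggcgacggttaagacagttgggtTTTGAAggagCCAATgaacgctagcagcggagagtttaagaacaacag

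Of the 5 mitotic stretches, those of Ccnb2, Mki67, Top2a and Cdc20 hold CCAAT beside a CHR core, and that of Birc5 holds neither. The 4 S-phase stretches hold no CHR core, and the paired E2F-like matches of Mcm6 overlap on opposite strands. The window of Birc5, the mitotic gene with the lowest adjusted p below, held none of these 4 motifs.

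The libraries differed in ways that bear on every value below. Total counts ran from 5345377 to 63943036. The TMM factors that scaled these totals were 0.760, 0.633, 3.69 and 1.85 in Hypoxia 1 to 4. In Hypoxia+Nitrate 1 to 4 they were 0.220, 1.65, 2.13 and 0.393. The order of libraries in CPM below, also within the nitrate group, depends on these factors. Ribosomal DNA genes held 75.7%, 73.7%, 7.06% and 45.0% of counts in Hypoxia 1 to 4 and 2.33% to 22.0% in Hypoxia+Nitrate. Genes of odorant, vomeronasal and trace-amine receptors, taken as mostly silent in gut, held counts in all libraries, and their density per kb of exon was used as an estimate of background. By this estimate background made up 39.0% to 63.6% of the nuclear protein-coding counts in the Hypoxia libraries, 23.2% and 19.5% in Hypoxia+Nitrate 2 and 3, and 2.85% and 2.74% in Hypoxia+Nitrate 1 and 4. Protein-coding genes of the mitochondrial genome held 0.423% to 1.06% of counts in Hypoxia and 64.0%, 7.31%, 6.90% and 49.3% in Hypoxia+Nitrate 1 to 4. The summed level of 8 small intestinal epithelium markers, which include Vil1 and Epcam, was 43.0 to 400 CPM (counts scaled to a common library size after TMM normalisation) in Hypoxia and 714 to 26628 in Hypoxia+Nitrate. All 8 markers and all 6 smooth muscle markers were called higher, and no marker of either list was at 0 in any library. These calls fell to 0 and 0 without Hypoxia 1 (5.56% of all genes called), 1 and 0 without Hypoxia 4 (11.5%), and 4 and 0 with library size only (5.08%). By limma-voom on nuclear protein-coding genes they were 6 and 6 (46.4%), and 2 and 0 after background subtraction (13.4%). In these fits the median log2 fold change stayed positive, at 3.63 to 5.19 for the epithelial and 1.70 to 2.83 for the smooth muscle markers. The background share and the marker levels separate the groups completely, so their part in the results cannot be told apart from that of nitrate. In bulk tissue, fewer cells of a type and less RNA per cell cannot be told apart either.

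Of the 30 genes, 4 rose with nitrate, 1 fell and 25 passed the threshold in neither direction (edgeR's quasi-likelihood test, Benjamini-Hochberg adjusted p under 0.05 over all genes). Pcna, Mcm5, Ccnb2 and Birc5 rose, and Cdc6 fell. Over all 35431 genes tested, 24.4% were called, 11.7% higher and 12.7% lower, so the 5 of 30 called is not above the background. The fitted change was positive for 24 genes and negative for Rrm2, Cdc6, Mki67, Aurkb, Cenpa and Foxm1. The median log2 fold change of the 30 genes was 0.53, beside -0.58 over all genes tested and 0.04 over nuclear protein-coding genes, of which 18.5% were called higher and 9.75% lower. Scaling by library size alone left 7 of the 30 changes positive and no gene called, with 3 of the 30 at an unadjusted p under 0.05 and 5.08% of all genes called, so the direction of the whole set depends on the scaling. It also moved the median over all genes to -1.07.

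**Figure D1:**
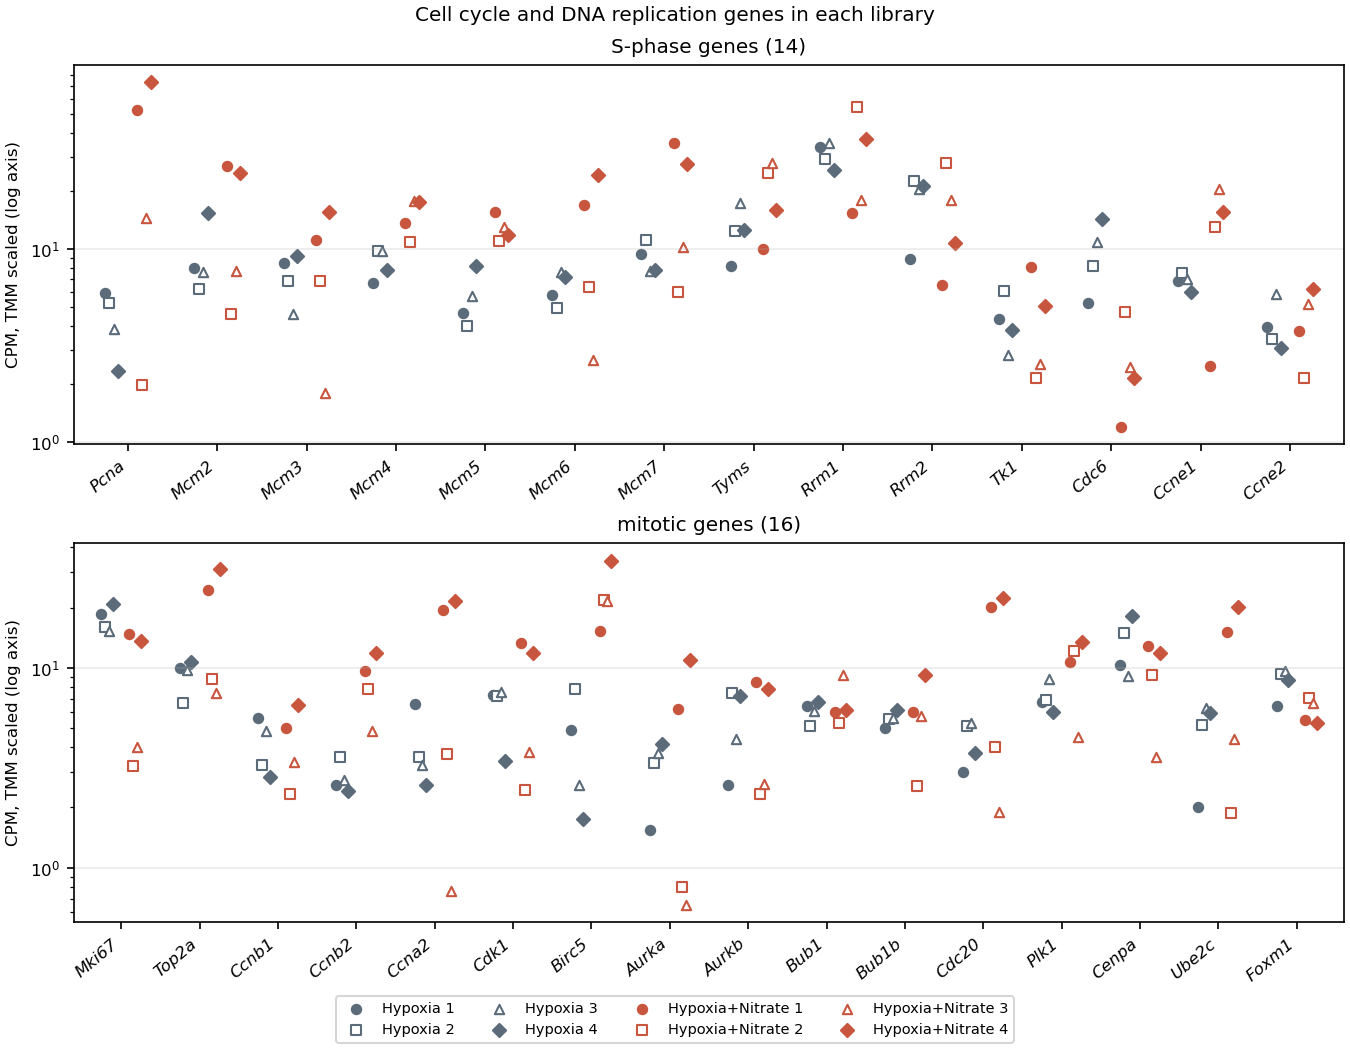
CPM after TMM scaling (log axis) of the 14 S-phase and 16 mitotic genes, with 1 point per library; grey is Hypoxia, red is Hypoxia+Nitrate and the marker shape gives the replicate. Filled red points (Hypoxia+Nitrate 1 and 4) both lie above the open red points (2 and 3) for 18 genes, and the groups are fully apart only for Mcm4, Mcm5, Ccnb2 and Birc5, which are higher, and Cdc6 and Mki67, which are lower.

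Among the S-phase genes, the replication clamp Pcna had the largest fitted change. Its level was 5.94, 5.24, 3.85 and 2.35 CPM in Hypoxia 1 to 4 and 52.9, 1.99, 14.4 and 73.0 CPM in Hypoxia+Nitrate 1 to 4. After TMM scaling, Hypoxia+Nitrate 1 and 4 stood far above all others, while Hypoxia+Nitrate 2 was below every Hypoxia library, so the groups overlapped. Over total counts instead, Hypoxia+Nitrate 3 was highest and Hypoxia+Nitrate 1 lay below Hypoxia 3. The log2 fold change was 3.03 (SE 0.878, adjusted p = 0.0303, edgeR, n = 4 per group). Pcna made up 24.0% and 25.4% of all S-phase counts in Hypoxia+Nitrate 1 and 4, against 1.13% to 8.88% in the other libraries. Its call was lost when any single Hypoxia library or Hypoxia+Nitrate 1 or 4 was left out, and its fitted change was -0.35 with the background share as a covariate. The processed pseudogenes Pcna-ps1 and Pcna-ps2 held at most 45 counts in any library, and reads shared between copies may have been assigned to either. Those 45 counts were of Pcna-ps2 in Hypoxia 4, where Pcna held 39, and Pcna held 39 to 89 counts in Hypoxia.

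The 6 subunits of the MCM helicase all had positive changes, from 0.28 for Mcm3 to 1.19 for Mcm5, and Mcm5 alone passed the test. Mcm5 was at 4.67, 4.00, 5.69 and 8.19 CPM in Hypoxia and 15.6, 11.03, 13.0 and 11.9 CPM in Hypoxia+Nitrate, with no overlap (SE 0.396, adjusted p = 0.0494, edgeR). Its adjusted p lay just inside the threshold, while Mcm4, the nearest gene outside it, had 0.122. The call of Mcm5 was lost without any single Hypoxia library, without Hypoxia+Nitrate 1 or 4, with RLE or upper-quartile factors, with a CPM of at least 1 in 4 samples and with nuclear protein-coding genes alone. Mcm4 was also higher in every Hypoxia+Nitrate library, at 13.7, 10.9, 17.9 and 17.7 CPM, than in any Hypoxia library, at 6.68, 9.82, 9.80 and 7.83 CPM (log2 fold change 0.82, SE 0.370). After TMM scaling, fully separate groups were found for 6 of the 30 genes, 4 higher and Cdc6 and Mki67 lower. Beside this were 40.8% of all genes tested, 12% higher and 28.8% lower. Over total counts, the groups overlapped for Mcm4, Mcm5, Ccnb2, Birc5 and Cdc6, and only Mki67 of the 6 stayed apart. The share of all genes was not taken on that scale.

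After TMM scaling, Mcm2, Mcm3, Mcm6 and Mcm7 followed the split within the nitrate group, which none of the 4 showed over total counts. Mcm6 was at 17.0 and 24.2 CPM in Hypoxia+Nitrate 1 and 4 and at 6.37 and 2.67 CPM in Hypoxia+Nitrate 2 and 3, beside 4.95 to 7.64 CPM in Hypoxia. Mcm7 was at 35.4 and 27.7 CPM against 6.03 and 10.2 CPM, beside 7.69 to 11.1 CPM in Hypoxia. All 6 MCM genes were above every Hypoxia library in both Hypoxia+Nitrate 1 and 4, and only Mcm4 and Mcm5 were so in both Hypoxia+Nitrate 2 and 3. The fitted changes of the 6 subunits had SEs from 0.370 to 0.612, and differences among them were not tested.

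Cdc6, which loads the helicase, was the only one of the 30 genes that fell. It was at 5.27, 8.22, 10.9 and 14.3 CPM in Hypoxia and 1.21, 4.72, 2.45 and 2.15 CPM in Hypoxia+Nitrate, with no overlap. It fell by 1.87 on the log2 scale (SE 0.554, adjusted p = 0.0327, edgeR). Its Hypoxia+Nitrate counts were 1.12 times the expected background, the lowest ratio of the set in that group, beside 1.79 times in Hypoxia. The call was lost without any single Hypoxia library, without Hypoxia+Nitrate 1 or 4, and after the background was subtracted (log2 fold change -4.28, SE 1.87, adjusted p = 0.148, limma-voom).

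The cyclins E, which start S phase, and the enzymes of nucleotide supply did not pass the test. Ccne1 was at 6.02 to 7.49 CPM in Hypoxia and at 2.49, 13.1, 20.5 and 15.6 CPM in Hypoxia+Nitrate 1 to 4, so Hypoxia+Nitrate 1 stood below all Hypoxia libraries and the other 3 above (log2 fold change 0.91, adjusted p = 0.227, edgeR). Without Hypoxia+Nitrate 1 it was called higher. Tyms, thymidylate synthase, was at 8.21 to 17.4 CPM in Hypoxia and at 10.02, 24.7, 28.0 and 16.0 CPM in Hypoxia+Nitrate, highest in libraries 2 and 3. Rrm1 and Rrm2, the subunits of ribonucleotide reductase, had changes of 0.01 and -0.20. Rrm2 had the highest level per length of the set in Hypoxia, a mean of 6.58 CPM per kb of exon, and 5.71 in Hypoxia+Nitrate. Tk1 and Ccne2 had changes of 0.07 and 0.10.

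Among the mitotic genes, Birc5 and Ccnb2 rose. Birc5 encodes survivin, a subunit of the chromosomal passenger complex, and was at 4.87, 7.86, 2.58 and 1.75 CPM in Hypoxia and 15.3, 21.7, 21.6 and 34.4 CPM in Hypoxia+Nitrate. After TMM scaling, every Hypoxia+Nitrate library was above every Hypoxia library (log2 fold change 2.45, SE 0.539, adjusted p = 0.0114, edgeR). Over total counts instead, Hypoxia+Nitrate 1 lay below Hypoxia 1, 2 and 3, so the groups overlapped. Unlike Pcna, Birc5 was not lowest in Hypoxia+Nitrate 2 and 3 after TMM scaling. It was called in all fits except those without Hypoxia 1, with library size alone and with the background share as a covariate. Ccnb2, a B-type cyclin, was at 2.60, 3.56, 2.74 and 2.41 CPM in Hypoxia and 9.66, 7.85, 4.84 and 11.9 CPM in Hypoxia+Nitrate, again with no overlap (log2 fold change 1.596, SE 0.473, adjusted p = 0.0328, edgeR). Its call was lost without any single Hypoxia library, without Hypoxia+Nitrate 1 or 4, with RLE or upper-quartile factors and with nuclear protein-coding genes alone.

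The partners of these 2 genes did not change with them beyond the test. Aurkb, the kinase of the passenger complex, had a change of -0.04 (SE 0.604) and Ccnb1, the other B-type cyclin, of 0.05 (SE 0.552). Cdk1, the kinase that B-type cyclins activate, had 0.30 (SE 0.594). Each of these standard errors is larger than the change beside it, so a moderate change in either direction was not detectable in these libraries.

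Mki67, the gene of the proliferation antigen Ki-67, went the other way from most. It was at 18.5, 16.0, 15.3 and 20.9 CPM in Hypoxia and at 14.8, 3.24, 4.03 and 13.7 CPM in Hypoxia+Nitrate, so every nitrate library was below every Hypoxia library. Its change of -0.99 did not pass the test (SE 0.534, adjusted p = 0.184, edgeR), though it was called lower with nuclear protein-coding genes alone. Hypoxia+Nitrate 1 and 4 lay close under the Hypoxia libraries and 2 and 3 far below, where the counts were 0.448 and 0.624 times the expected background.

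Top2a, topoisomerase II alpha, had the same split within the nitrate group with the opposite sign. It was at 6.69 to 10.7 CPM in Hypoxia and at 24.5, 8.76, 7.51 and 31.3 CPM in Hypoxia+Nitrate 1 to 4 (log2 fold change 0.96, adjusted p = 0.182, edgeR). Cdc20, the activator of the anaphase-promoting complex, was at 3.004 to 5.27 CPM in Hypoxia and at 20.2, 4.04, 1.91 and 22.3 CPM in Hypoxia+Nitrate, and Ube2c, a ubiquitin-conjugating enzyme of the same pathway, at 2.003 to 6.32 CPM and 15.1, 1.88, 4.41 and 20.05 CPM. Ccna2, cyclin A2, ran from 0.762 CPM in Hypoxia+Nitrate 3 to 21.6 CPM in Hypoxia+Nitrate 4. After TMM scaling, Hypoxia+Nitrate 1 and 4 were high in these 4 genes and 2 and 3 lay within or below the Hypoxia range. Over total counts this split was absent in all 4, and Top2a was lower in 1 and 4 than in 2 and 3.

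The remaining mitotic genes moved little or unevenly. The checkpoint kinase Bub1 and its relative Bub1b had changes of 0.13 and 0.08, the mitotic kinase Plk1 had 0.52, and the spindle kinase Aurka 0.54 with an SE of 0.880, the widest of the set. Cenpa, the histone variant of centromeres, and Foxm1, a transcription factor of mitotic genes, had changes of -0.49 and -0.48.

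**Figure D2:**
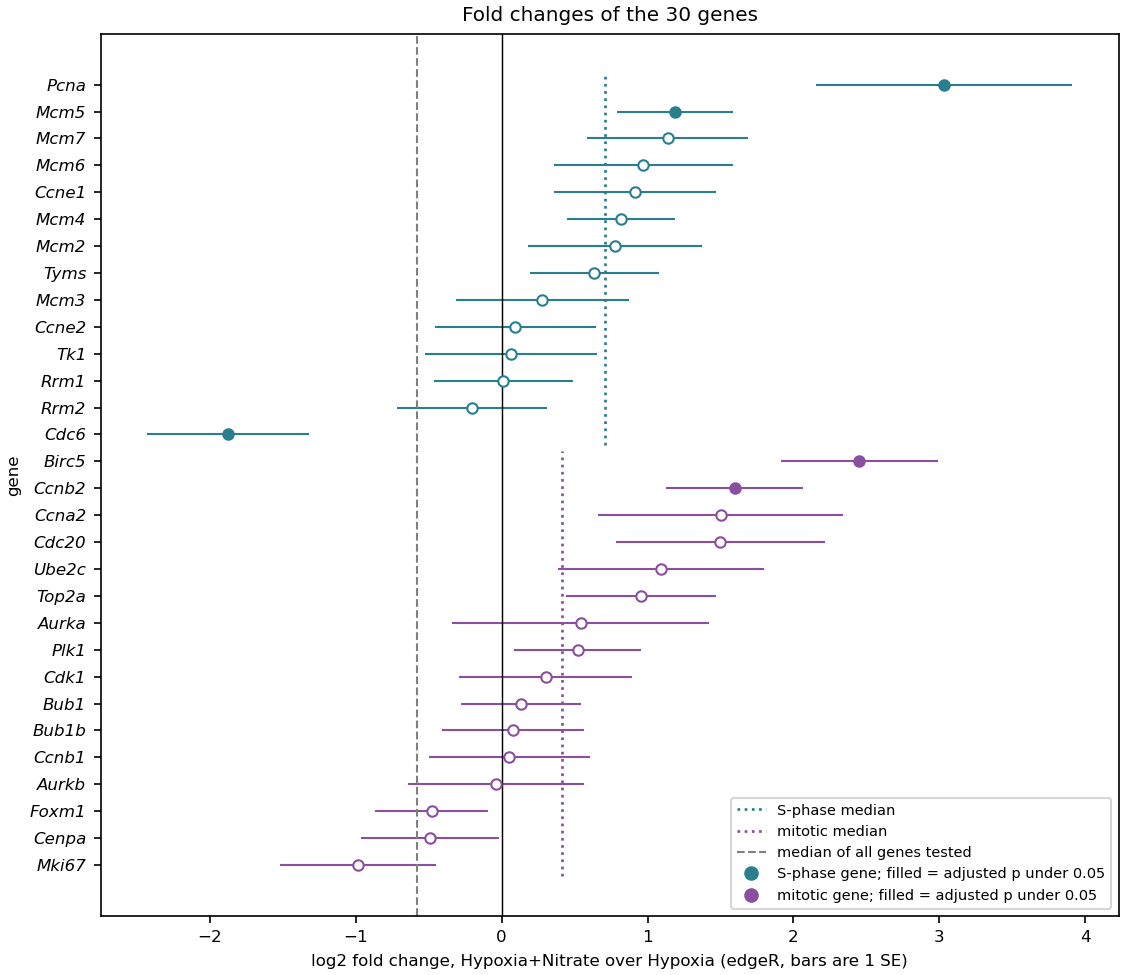
Fitted log2 fold change (Hypoxia+Nitrate over Hypoxia) with its standard error for each of the 30 genes, ordered by size within the S-phase and mitotic classes, with lines at 0 (solid), at the median of all genes tested (dashed) and at each class median (dotted); filled points passed the test. Pcna, Mcm5, Ccnb2 and Birc5 are called higher and Cdc6 lower, and the other 25 were not called.

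The S-phase and mitotic classes had similar numbers of calls, and the difference between them was not tested. The S-phase genes had 2 called higher and 1 lower of 14, with a median log2 fold change of 0.71. The mitotic genes had 2 called higher and none lower of 16, with a median of 0.41. The difference of the medians was 0.29. Per library, the difference of the class medians of log2 CPM had a pooled SD of 0.39 within groups. This is a spread of single libraries and not the error of the 0.29. Without Hypoxia+Nitrate 1 and 4 the medians were 0.13 and -0.44, and 4 genes were called higher (Mcm5, Tyms, Ccne1 and Birc5) and Mki67 lower. Without Hypoxia 1 and 2 Birc5 alone was called. Those fits called 27.7% and 10.3% of all genes.

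Other fits were read in the same way, as genes of the 30 called beside the share of all genes called. Other scalings gave 3 genes beside 26.1% with RLE factors and 3 beside 23.3% with upper-quartile factors. Other filters gave 5 beside 30.8% with no filter, 4 beside 23.2% with a CPM of at least 1 in 4 samples, and 4 beside 29.4% with nuclear protein-coding genes alone. DESeq2 gave 6 beside 42.3%, limma-voom 4 beside 44.6%, limma-voom on nuclear protein-coding genes alone 4 beside 46.4%, and the background share as a covariate 0 beside 0%. Leaving out Hypoxia 1, 2, 3 or 4 gave 0, 1, 1 and 1 beside 5.56%, 15.5%, 11.1% and 11.5%. Leaving out Hypoxia+Nitrate 1, 2, 3 or 4 gave 2, 7, 8 and 1 beside 22.5%, 53.8%, 35.1% and 20.1%. In each of these fits with calls, the share of the 30 genes called was below that of all genes, and Birc5 was among them.

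Within a library the ratio of summed S-phase to summed mitotic CPM does not depend on the scaling. It was 1.21, 1.24, 1.396 and 1.297 in Hypoxia and 1.14, 1.85, 1.90 and 1.21 in Hypoxia+Nitrate 1 to 4. Hypoxia libraries had a mean log2 ratio of 0.36 ± 0.09 (SD, n = 4), nitrate libraries 0.57 ± 0.39 (SD, n = 4), and the groups overlapped. Hypoxia+Nitrate 2 and 3 had the highest ratios of the 8 libraries, while Hypoxia+Nitrate 1 and 4 had ratios at or just below those of Hypoxia. Both sums were highest in Hypoxia+Nitrate 1 and 4 after TMM scaling only. Over total counts both were lower in Hypoxia+Nitrate 1 and 4 than in 2 and 3. After TMM scaling the sums in Hypoxia+Nitrate 1 to 4 were 220, 177, 162 and 288 CPM for S-phase genes. For mitotic genes they were 193, 95.3, 85.3 and 238 CPM. On this scale, in libraries 2 and 3 the S-phase sum was above the Hypoxia range of 120 to 147 CPM and the mitotic sum below the Hypoxia range of 99.6 to 112 CPM.

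**Figure D3:**
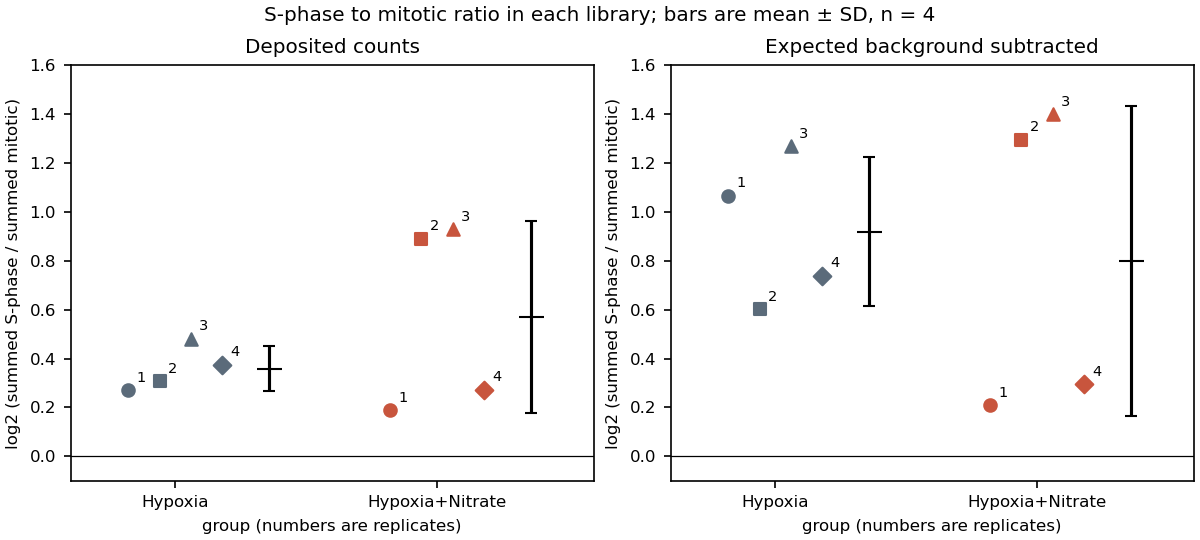
Log2 ratio of summed S-phase to summed mitotic CPM in each library, as counted and after background subtraction. Hypoxia+Nitrate 2 and 3 lie highest, at 0.89 and 0.93 as counted, and the groups overlap in both versions.

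Counts of these genes in Hypoxia lay close to the background. Pooled over the 4 Hypoxia libraries, the median gene held 1.67 times the counts expected from background, from 0.767 times for Tk1 to 6.28 times for Rrm2. In 14 genes (5 S-phase, 9 mitotic) this ratio was under 1.5, and in Birc5 it was 1.12. In Hypoxia+Nitrate the median ratio was 5.60 and the highest 32.9, for Pcna. Summed over the 30 genes the ratio was 1.37, 2.14, 1.74 and 1.88 in Hypoxia, 2.84 and 2.90 in Hypoxia+Nitrate 2 and 3, and 14.8 and 17.1 in Hypoxia+Nitrate 1 and 4. In Hypoxia 1 to 4, 10, 2, 3 and 6 of the 30 genes were at or below background. In Hypoxia+Nitrate 2 and 3, 7 and 8 of the 30 genes were, more than in Hypoxia 2, 3 or 4, and in Hypoxia+Nitrate 1 and 4 none was.

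**Figure D4:**
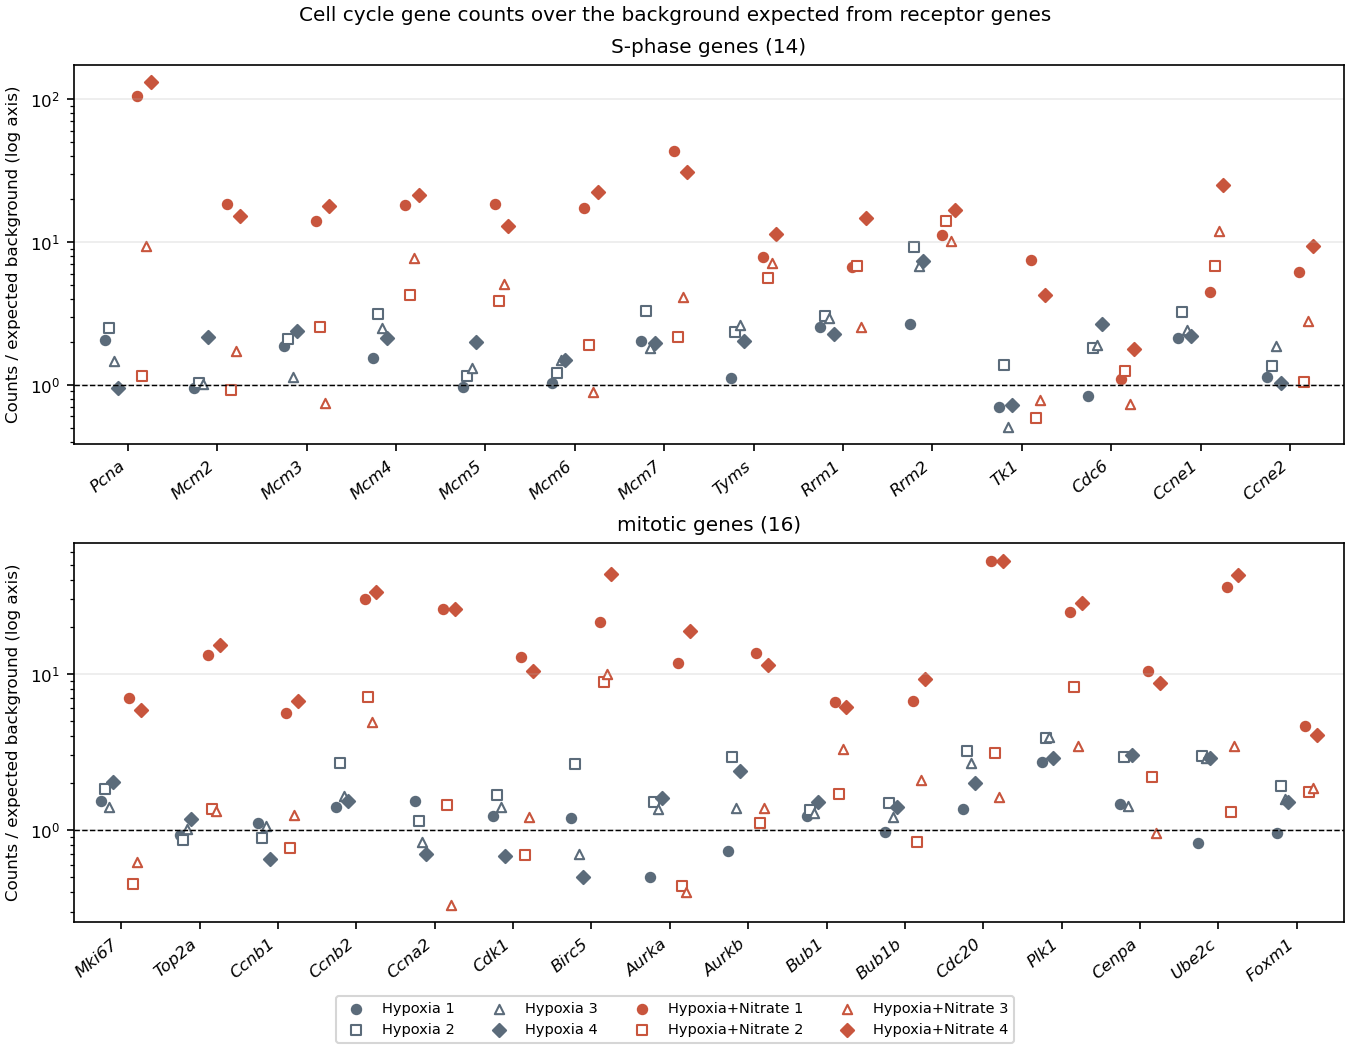
Counts of each gene divided by the background expected from receptor genes (log axis), per library, with the line at 1. Hypoxia+Nitrate 1 and 4 sit highest for most genes, and the Hypoxia libraries sit near the line, with a pooled median of 1.67.

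The expected background was subtracted from nuclear protein-coding counts and the rest fitted with limma-voom. The same fit without subtraction called Ccnb2 and Birc5 higher and Cdc6 and Mki67 lower. After subtraction, of the 28 genes still tested, Top2a (log2 fold change 4.66, SE 1.31, adjusted p = 0.0436) and Birc5 (4.81, SE 1.28, adjusted p = 0.0348) were higher by limma-voom and none was lower, beside 4.21% of 15004 genes higher and 9.24% lower. Top2a was left with 0, 0, 1.22 and 14.002 CPM of the remaining counts in Hypoxia and 34.3, 10.4, 7.07 and 38.6 in Hypoxia+Nitrate, so its groups overlapped. Birc5 was left with 10.6, 37.8, 0 and 0 CPM in Hypoxia and 22.2, 84.7, 76.2 and 44.4 in Hypoxia+Nitrate, so its groups overlapped too. Counts at or below the expected background were set to 0. Ccnb2 went from 1.22 (adjusted p = 0.0436) to 1.24 (adjusted p = 0.325), so its call was lost with a like change and a wider error. Pcna (1.84, adjusted p = 0.157, before and 2.55, adjusted p = 0.509, after) and Mcm5 (0.88, adjusted p = 0.0834, before and 2.99, adjusted p = 0.112, after) were called in neither of these fits. Overlap was read here in CPM of the remaining counts, without TMM factors. It thus differs from the overlap given above in scaling as well as in subtraction, and their parts were not tested. On this scale no gene was fully higher, and Mki67 and Cenpa were fully lower in nitrate, beside 7.21% and 17.5% of genes (24.7% in either direction). The fit called 13.4% of all genes. The class medians were 0.04 for S-phase and 0.14 for mitotic genes, beside 0.07 over all genes tested, and 0.19 and -0.26 beside -0.56 in the fit without subtraction. Over the 28 genes the median SE was 1.40, against 0.508 in the fit without subtraction. Summed over each class, the remaining level was lower in every Hypoxia+Nitrate library: 626 to 865 against 313 to 580 CPM for S-phase genes, and 300.2 to 419 against 183 to 294 for mitotic genes. This is a share of the remaining protein-coding counts, in which the 8 epithelial markers summed to 215 to 2942 CPM in Hypoxia and 2745 to 35162 CPM in Hypoxia+Nitrate.

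Long genes had lower fitted changes. Across the 30 genes Spearman's rho between the change and the exonic length was -0.475, and it was -0.629 across the 16 mitotic genes and -0.349 across the 14 S-phase genes. The 122 other cell cycle genes below had -0.355, while 20128 nuclear protein-coding genes had 0.0636. After background subtraction the values were -0.114 (28 genes) and -0.150 (104 genes). These are descriptions across genes of the same libraries. Ccnb2, the shortest of the 30 with 1531 exonic bases, was called higher, while Mki67, with 10061, had the lowest change of the mitotic genes.

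**Figure D5:**
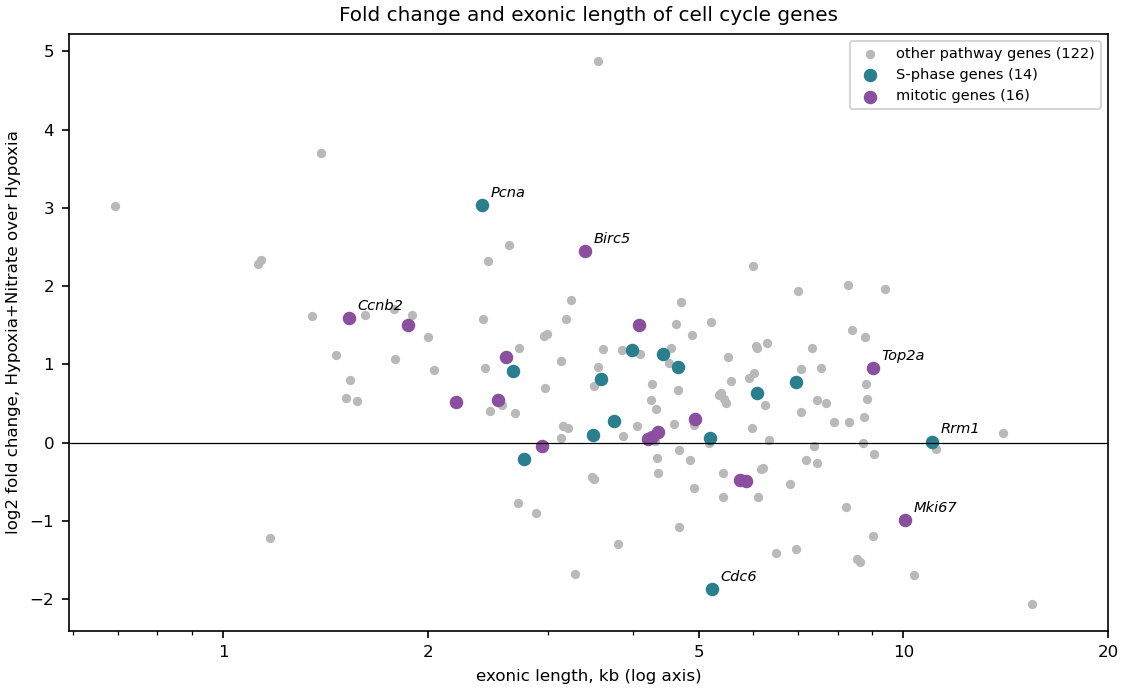
Fitted log2 fold change of the 30 genes and of 122 other cell cycle genes against exonic length in kb. Short genes such as Ccnb2 lie high and long genes such as Mki67 lie low, with a Spearman's rho of -0.475 over the 30 genes.

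Other replication and mitosis genes were called higher about as often as coding genes at large. Of 52 other replication genes, 9 (17.3%) were called higher and none lower, with a median of 0.70, beside 18.5% of nuclear protein-coding genes called higher. Rpa2, a subunit of the single-strand binding protein, rose by 1.38 (SE 0.447, adjusted p = 0.0446, edgeR), while Cdt1, Gmnn, Gins2, Pola1, Fen1, Lig1, Uhrf1 and E2f1 had changes from 0.21 to 1.14 that did not pass, and Cdc45 had -0.47. Of 50 other mitosis genes, 10 (20%) were called higher and 4 (8%) lower, with a median of 0.26, beside 18.5% and 9.75%.

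The small kinase-binding subunits Cks1b and Cks2 rose by 2.28 and 3.03, the checkpoint protein Mad2l1 by 1.44 and securin, Pttg1, by 1.35 (adjusted p from 0.0246 to 0.0488, edgeR). Cenpf, a large kinetochore protein, fell by 2.06 on the log2 scale, from 16.2 to 30.9 CPM in Hypoxia to 1.20 to 8.70 CPM in Hypoxia+Nitrate (adjusted p = 0.0251, edgeR). Kif11, Tpx2 and Cdca8 had changes of -0.26, -0.09 and 0.00, and Ndc80 of -1.41 (adjusted p = 0.0964, edgeR).

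Of 20 G1 cyclins, kinases and inhibitors, 7 (35%) were called higher and none lower, with a median of 1.21. Beside this, 11.7% of all genes and 18.5% of nuclear protein-coding genes were called higher, and 12.7% and 9.75% lower. The share of this short list was not tested against them. The inhibitor of cyclin-dependent kinases Cdkn1a was at 6.61, 20.004, 6.43 and 8.79 CPM in Hypoxia and 563, 55.5, 25.8 and 587 CPM in Hypoxia+Nitrate, with no overlap (log2 fold change 4.88, SE 1.09, adjusted p = 0.0121, edgeR). Within the nitrate group its order over libraries was that of the summed epithelial markers, highest in Hypoxia+Nitrate 4 and then 1. Ccnd1 and Cdk4, which drive G1, rose by 1.796 and 1.83, Cdkn1b and Myc had 1.21 each without passing, and Cdk2 had -0.32. With 1 library left out, the replication genes called higher ranged from 2 to 14, the mitosis genes from 0 to 12 (0 to 7 lower) and the G1 genes from 0 to 12. Those fits called 5.56% to 53.8% of all genes. The highest counts of the 3 lists came without Hypoxia+Nitrate 2, where 53.8% of all genes were called. The fit without Hypoxia 1, with 5.56%, gave the lowest counts called higher. The G1 count was 0 without Hypoxia 1, and the mitosis count was 0 higher without Hypoxia 1, 2 or 4. With library size alone no gene of the 3 lists was called, beside 5.08% of all genes.

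Markers of crypt stem and progenitor cells, where most division takes place, were not called higher. Of 10 such markers, 9 were not called and Ephb2 was called lower, and their summed level was 88.1 to 108 CPM in Hypoxia and 105 to 147 CPM in Hypoxia+Nitrate, so the groups overlapped. Lgr5, a stem cell marker, was at 7.38 to 13.7 CPM in Hypoxia and 0.781, 40.2, 11.9 and 1.51 CPM in Hypoxia+Nitrate. The markers did not share one pattern within the nitrate group: Lgr5 and Sox9 were lower in Hypoxia+Nitrate 1 and 4 than in 2 and 3, Ascl2, Olfm4, Axin2 and Cdca7 were higher, and 4 were neither. Olfm4 was at 26.9, 1.36, 3.81 and 23.3 CPM in Hypoxia+Nitrate 1 to 4. Among markers of lymphoid cells, which also divide in gut, 1 of 8 B cell markers (12.5%) and 1 of 7 T cell markers (14.3%) were called higher, close to the background of 11.7% over all genes and 18.5% over coding genes, and their summed levels were 25.3 to 39.9 CPM and 47.9 to 70.1 CPM in Hypoxia against 23.3 to 157 CPM and 58.9 to 142 CPM in Hypoxia+Nitrate. The part of these cell types in the changes above was not tested.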

How the data were processed

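Total RNA of 8 small intestine samples was sequenced from stranded libraries, per the labels' protocols, which also mention islets at the RNA isolation step. Read counts, whole numbers for each gene, were deposited by the authors. HISAT, featureCounts 1.5.0-p3 and DESeq 1.8.3 are named with GRCm38, per the submitters' processing notes. No source used here gives their roles, the annotation or the strand setting, so the 9 genes whose exons overlap other genes (77.23% free of overlap at the least, in Ube2c) are less certain.

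Groups came from sample titles. Genes were tested in R 4.3.3 with edgeR 4.0.16 (filterByExpr with a minimum count of 10, TMM, quasi-likelihood test, Benjamini-Hochberg over 35431 genes). CPM used the TMM-scaled library size, in which 1 count was 0.0488 to 0.0727 CPM. After background subtraction, CPM used the sum of the remaining counts, without TMM factors. Depth is in the report; the 30 genes held 12 to 1497 counts per library, and such counts carry counting error. Of the 55421 IDs, 55240 matched GENCODE M21, which gave exon lengths. Expected background was the counts per kb over 1470 autosomal receptor genes times the exonic length free of other genes, multiplied by 0.5 for genes on the sex chromosomes. Subtracted counts were fitted with limma-voom (limma 3.58.1). A log2 pseudocount of 0.5 CPM was used only for per-library means of logs. DESeq2 1.42.0 and other settings were alternatives. The fit was tested on simulated data. Members, classes and gene lists were chosen with earlier results of these data known. Named genes were all 30 members, a short list of other pathway genes, and defining markers.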

Additional observations from a re-analysis of the deposited data

Results flagged for a closer look

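Single libraries stood apart from the other 3 of their group for 2 genes, among 62 groups of values examined (the 30 genes and the class ratio, in each group). Chance flags about 1 in 20 such groups. Rrm2 was at 8.88 CPM in Hypoxia 1, below the 20.4 to 22.5 CPM of the other Hypoxia libraries. Cdk1 was at 3.43 CPM in Hypoxia 4, below the 7.20 to 7.59 CPM of the other Hypoxia libraries.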

How the results depend on the processing

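The call of 5 genes out of 30 depended on the fit. It was 3 with RLE or upper-quartile factors, 0 with library size only, 2 after background subtraction, 1 without Hypoxia 1 and 2, and 0 with the background share as a covariate, where 4 of the 30 had an unadjusted p under 0.05 by edgeR. Leaving out 1 library gave 0 to 8 calls. Over all genes, 8653 were called as reported, 1800 with library size only, 16708 with no filter, 22228 by DESeq2, 15818 by limma-voom, 2017 after subtraction, 4227 without Hypoxia 1 and 2, 0 with the covariate (2640 at an unadjusted p under 0.05), and 1932 to 22454 with 1 library left out. The higher share of calls was 48.1% with TMM, 35.0% with RLE, 13.5% with library size only and 34.4% with upper-quartile factors. The S-phase median was 0.31 with upper-quartile factors, -0.59 with library size only, 0.036 after subtraction, -0.27 with the covariate, 0.19 by limma-voom on nuclear protein-coding genes alone (added after seeing the data) and 0.13 without Hypoxia+Nitrate 1 and 4. The mitotic median was -0.80 with library size only, -1.14 with the covariate, -0.26 by that limma-voom fit and -0.44 without Hypoxia+Nitrate 1 and 4. The difference of the medians was -0.11 after subtraction and 0.87 with the covariate. The mean difference of the log2 class ratio was 0.21, -0.12 after subtraction and 0.56 without Rrm1 and Birc5, the largest gene of each class. Without Rrm1 and Birc5 the log2 ratio was -0.13 to 0.12 in Hypoxia and 0.20 to 1.18 in Hypoxia+Nitrate, so the groups did not overlap. The largest gene was taken by counts over all 8 libraries. In Hypoxia alone Birc5 had a mean of 4.26 CPM and Mki67 17.7 CPM, so the choice of Birc5 rested on its nitrate counts. With the covariate, the change of Pcna was -0.35, of Rpa2 -0.24, of Ccnd1 -0.16, of Cdk4 -0.058 and of Cdkn1a -0.73. The cause was not tested. The covariate separates the groups completely.

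The labels do not say whether replicate numbers pair the samples. Correlations of deviations between libraries of the same number were 0.10, -0.20, 0.24 and -0.07, too few to settle it. Only the libraries numbered 3 were each other's best match. A replicate block called 4791 genes and 1 of the 30, Birc5. Only Birc5 was called without Hypoxia 2, 3 or 4 or Hypoxia+Nitrate 4, none without Hypoxia 1, and 8 without Hypoxia+Nitrate 3.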
